A study of Mus musculus with 19 samples.

Results

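Hepcidin and the genes that take up, store and export iron were followed in the mouse liver before pregnancy, in lactation and after weaning. The set held 10 of the 51826 gene entries of the expression table. It was matched by gene symbol, with no cutoff on measured values, but it was chosen with earlier results of these data known. Its genes were Hamp and Hamp2 (both mouse hepcidin genes), Tfr2 and Hfe (sensors of plasma iron), Slc40a1 (the iron exporter ferroportin), Tfrc (transferrin receptor 1), Trf (transferrin), Fth1 and Ftl1 (the heavy and light chains of ferritin) and Alas1 (the first enzyme of heme synthesis). All 10 were measured and all 10 passed the filter on low values. RNA came from flash frozen liver of 19 female Balb/c mice, each listed as 12 weeks old: 7 nulliparous mice (NUL), 6 mice on day 10 of lactation (LAC) and 6 mice on day 6 of involution, after weaning (ID6). No mutant allele or treatment was listed for any group. The groups were defined by reproductive stage, and they also differed in the ranges of their animal numbers, as given below. Each library was 1 mouse, and whole tissue from the caudate lobes was used, so a value sums over hepatocytes, macrophages, endothelium and blood left in the vessels.

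Hepcidin is a peptide hormone made by hepatocytes. It binds ferroportin on macrophages, hepatocytes and the gut, blocks it and causes its degradation, and so holds iron inside cells. Its transcription is driven by bone morphogenetic proteins (BMPs), which endothelial cells of the liver release when iron is high and which act through SMAD proteins, and by interleukin 6 through STAT3 in inflammation. It is lowered when red cell production or growth draws on iron. Inside cells, iron is sensed by iron regulatory proteins, which bind hairpins in messenger RNA called iron-responsive elements. Bound at the 5′ end of a message they block its translation, and bound at the 3′ end they protect it from decay.

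The promoter stretches of the 2 hepcidin genes and the iron-responsive element matches found in the set are shown first, as a reference for the genes described after them; the expression data do not test any of these letters. Hamp lies on the minus strand of chromosome 7 (GRCm38 chr7:30942368-30944032, 3 exons) and Hamp2 is its duplicate 17686 bases away on the same strand (chr7:30922372-30924681). The stretches of 120 bases just upstream of each annotated start (RefSeq, GRCm38.p6, minus strand, chr7:30944041-30944160 for Hamp and chr7:30924190-30924309 for Hamp2) are printed 5′ to 3′ with the GGCGCC motif of SMAD binding, or the letters aligned to it, and the TTCNNNGAA motif of STAT binding in capitals. The Hamp2 stretch lies upstream of 2 of its annotated transcripts and within an intron of a longer one. The reference is not the Balb/c strain.
Hamp: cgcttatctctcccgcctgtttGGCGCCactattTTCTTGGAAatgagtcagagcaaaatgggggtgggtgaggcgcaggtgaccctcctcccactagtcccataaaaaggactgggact
Hamp2: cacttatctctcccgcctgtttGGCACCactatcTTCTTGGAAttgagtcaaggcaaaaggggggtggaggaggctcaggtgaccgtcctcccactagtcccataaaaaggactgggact
Over the 250 bases upstream of the start, 91.9% of 247 aligned bases were identical. Both stretches held the same STAT letters. The letters of the SMAD motif differed by G4A, counted from 1 at the 5′ end of the motif with the Hamp base first. Of all 32851 promoter windows, searched in full on both strands and not cut to those 250 bases, 11.9% held GGCGCC and 8.3% held TTCNNNGAA. Promoter windows were at hand for 8 of the 10 genes. GGCGCC also occurred in a window of Tfrc, and TTCNNNGAA in a window of Alas1. GGCACC, the letters of Hamp2, also occurred in windows of Fth1, Ftl1 and Alas1, and in 15.5% of all windows.

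The hairpins are printed as 27 bases from the GENCODE M21 transcripts (GRCm38), with the 6 bases of the loop in capitals. A match was an unpaired C, 5 bases, CAGTGN with no G at the last base, and 5 bases that paired with the first 5, G with U allowed.
Fth1, 5′ UTR, chr19:9982733-9982759, plus strand: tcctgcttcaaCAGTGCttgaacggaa
Ftl1, 5′ UTR, chr7:45459780-45459806, minus strand: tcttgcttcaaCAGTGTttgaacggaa
Slc40a1, 5′ UTR, chr1:45925466-45925492, minus strand: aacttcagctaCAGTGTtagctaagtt
Tfrc, 3′ UTR, chr16:32631220-32631246, plus strand: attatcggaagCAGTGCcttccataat
Tfrc, 3′ UTR, chr16:32631599-32631625, plus strand: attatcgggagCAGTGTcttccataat
Tfrc, 3′ UTR, chr16:32631664-32631690, plus strand: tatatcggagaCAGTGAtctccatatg
Tfrc, 3′ UTR, chr16:32631711-32631737, plus strand: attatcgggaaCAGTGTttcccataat
Of 22500 coding genes searched, 0.591% held such a match in a UTR, among them 4 of the 10 genes. Ferritin and ferroportin carried it at the 5′ end and transferrin receptor 1 carried 4 copies at the 3′ end. A match is a description of the letters and not evidence that the site was in use.

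Levels are in TPM, a share of each library corrected for transcript length, as deposited by the authors. Differences are log2 fold changes of TPM + 1 with standard errors (SE), from limma fitted to the 16230 genes whose mean level reached 0.1 TPM, and a gene "passed" when its p, adjusted by Benjamini-Hochberg over all those genes, was under 0.05. A stricter rule also asked for a difference of 1 or more, up or down, on the log2 scale. The table keeps no read depth, so counting error is unknown. Of all genes, between 11209 and 11797 per mouse reached 1 TPM, and the 10 most abundant genes took 25.7% to 31.2% of a library. Animal numbers fell in 2 ranges, under 200 (3 NUL and 3 LAC mice) and 200 and above (4 NUL, 3 LAC and 6 ID6 mice). The labels do not say what the numbers mark, and no ID6 mouse had a low number. Within the NUL and LAC mice, 25.6% of all genes passed for a difference between the ranges, so the 13 mice numbered 200 and above were also fitted alone. Their values are given for the 10 genes, for other named genes where the call was lost among them, and for genes named because they passed there.

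In the order of their levels, Trf was the most abundant of the set in each stage, with mean levels of 15031 TPM in NUL, 17148 TPM in LAC and 23146 TPM in ID6, which put it 7th, 6th and 5th among all genes. Hamp followed in NUL and ID6 at 19th and 10th place and stood at 67th place in LAC, below Ftl1 and Fth1. Hamp2 and Fth1 had means within 1 SD of each other in NUL (1751 ± 1009 and 1663 ± 86.0 TPM). Alas1, Tfr2, Slc40a1, Hfe and Tfrc completed the order in each stage, and the mean of Tfrc, the lowest, was 9.22 TPM in NUL, 25.3 TPM in LAC and 15.3 TPM in ID6.

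In lactation, 5 of the 10 genes passed against NUL: Hamp and Slc40a1 fell, and Tfrc, Fth1 and Ftl1 rose. Of all genes, 9.21% passed (2.72% higher and 6.49% lower). The median log2 fold change of the set was 0.11, against -0.03 over all genes. Hamp and Tfrc met the stricter rule, which 0.746% of all genes met. The same 5 genes passed, in the same directions, in the fit of the mice numbered 200 and above alone. There 1145 of 16062 genes passed (425 higher and 720 lower). With each library scaled by the median ratio of its genes, the split over all genes moved from 441 higher and 1053 lower to 659 higher and 840 lower.

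After weaning, 4 of the 10 genes passed for ID6 against LAC: Hamp and Slc40a1 rose, both past the stricter rule, and Fth1 and Ftl1 fell. Of all genes, 22.8% passed (18.1% higher and 4.73% lower) and 1.93% met the stricter rule. With median-ratio scaling the split over all genes moved from 2936 higher and 767 lower to 1433 higher and 1220 lower, and the scaling moved the median of all genes from 0.10 to 0.01. Fitted on the LAC and ID6 mice alone, 7 of the 10 passed, with Hamp2 higher and Tfrc and Alas1 lower besides, where 23.2% of all genes passed. By an exact permutation test on mean TPM 7 of the 10 had an unadjusted p under 0.05, as did 35.0% of all genes. The comparisons of LAC with NUL and of ID6 with LAC share the LAC mice, so they are not independent of each other. For ID6 against NUL none of the 10 passed in limma. An unadjusted limma p was under 0.05 for 5 of the 10 and for 25.1% of all genes, and an unadjusted exact permutation p for 7 of the 10 and for 22.6% of all genes. Of all genes, 4.36% passed in that comparison (3.44% higher and 0.912% lower), and 0.253% met the stricter rule. Median-ratio scaling moved that split from 559 higher and 148 lower to 174 higher and 219 lower.

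**Figure D1:**
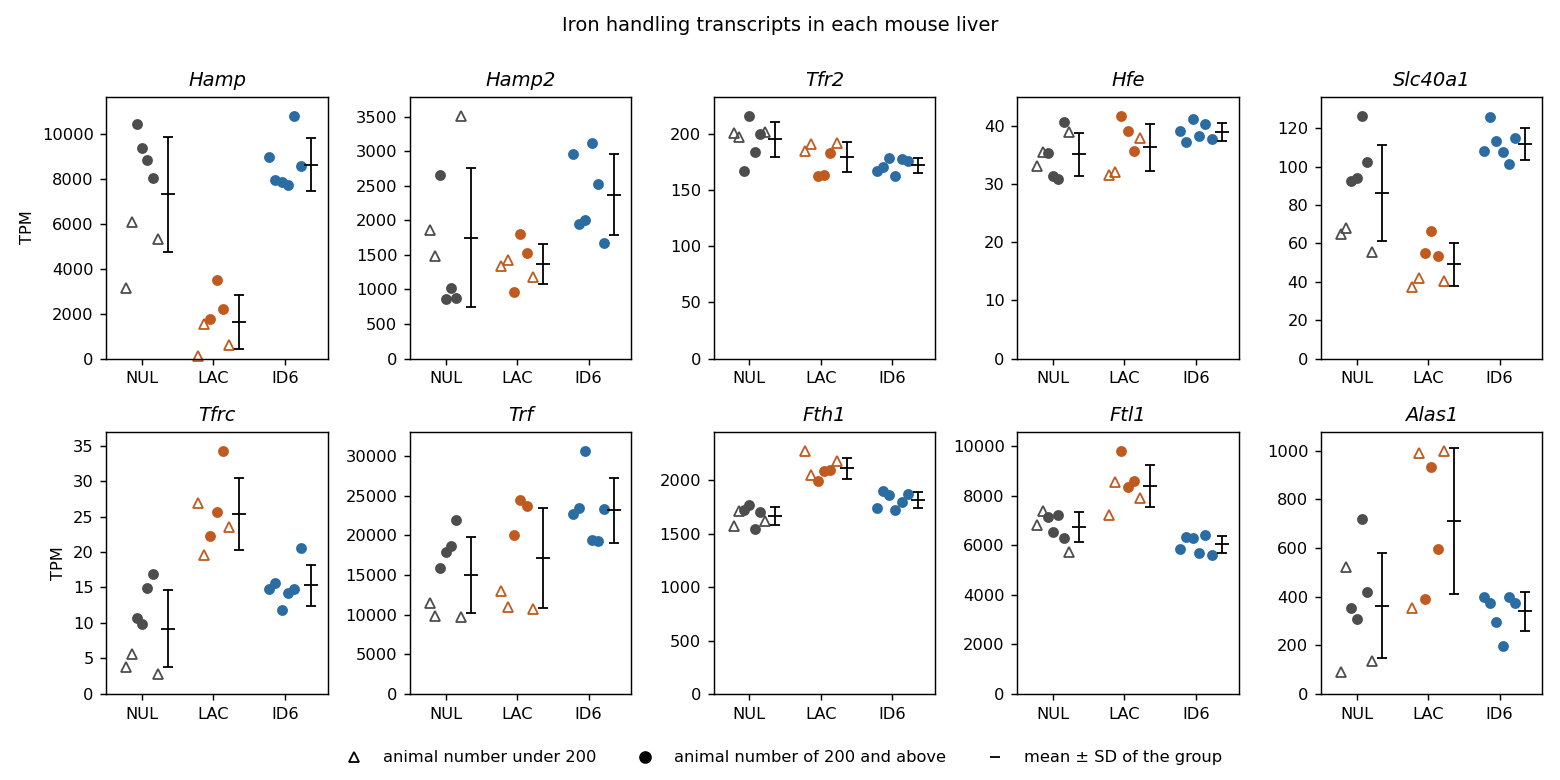
TPM (vertical axes, each from 0) of the 10 genes in each mouse, by stage; triangles are animal numbers under 200, circles are numbers of 200 and above, and the bars are the mean ± SD of 7 NUL, 6 LAC or 6 ID6 mice. Hamp and Slc40a1 are low in LAC, Tfrc is lowest in the 3 low-numbered NUL mice, and the ferritin transcripts are highest in LAC.

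The main hepcidin transcript, Hamp, was low in lactating livers. It ranged in NUL from 3154 to 10404 TPM (median 8008), in LAC from 123 to 3488 TPM (median 1644) and in ID6 from 7715 to 10778 TPM (median 8240). All 6 LAC mice were below the NUL mean, with 1 LAC mouse above the lowest NUL mouse, and no LAC mouse reached the lowest ID6 mouse. Mean Hamp was 4.51 times as high in NUL as in LAC and 5.33 times as high in ID6 as in LAC. The log2 fold changes, which compare means of log values and so are not the logs of these ratios, were -2.67 ± 0.54 in LAC against NUL (SE, limma adjusted p = 0.00382) and 3.0 ± 0.56 in ID6 against LAC (limma adjusted p = 0.000745). The lowest library, LAC_102 at 123 TPM, weighed on the size: without it the log2 fold changes were -2.05 and 2.37, and both still passed. Among mice numbered 200 and above the NUL and LAC values did not overlap (8008 to 10404 and 1764 to 3488 TPM), and the log2 fold change was -1.93 ± 0.19 (limma adjusted p = 0.000212). That call depended on the fit. With the spread shared with the low-numbered NUL and LAC mice and no ID6 mice, the same -1.93 did not pass (limma adjusted p = 0.0878). For ID6 against LAC the log2 fold change was 1.84 ± 0.18 in the fit of mice numbered 200 and above alone (limma adjusted p = 3.5e-05). It was 2.20 in all mice with the number range as a covariate. The log2 fold change for ID6 against NUL was 0.32 ± 0.54 (limma adjusted p = 0.735), and -0.09 ± 0.16 among mice numbered 200 and above.

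The duplicate, Hamp2, did not pass in lactation. It ranged from 857 to 3508 TPM in NUL (median 1482), from 962 to 1800 TPM in LAC (median 1380) and from 1675 to 3115 TPM in ID6 (median 2266). The NUL and LAC ranges overlapped nearly in full, and the 6 ID6 mice were all above the LAC mean. The log2 fold change of LAC against NUL was -0.18 ± 0.29 (limma adjusted p = 0.759), and 0.22 ± 0.36 among mice numbered 200 and above. For ID6 against LAC it was 0.78 ± 0.30 (limma adjusted p = 0.0682), which passed with the range of animal number as a covariate (adjusted p = 0.041) and was 0.74 ± 0.33 among mice numbered 200 and above (adjusted p = 0.165). Against NUL, the ID6 value of Hamp2 was 0.59 ± 0.29 (adjusted p = 0.205), and 0.95 ± 0.30 among those mice (adjusted p = 0.203). Hamp2 made up 8.39% to 39.8% of the summed hepcidin TPM in NUL (median 19.6%), 34.0% to 91.6% in LAC (median 44.6%) and 16.4% to 28.8% in ID6 (median 20.04%). The sum of both was 9054 ± 2472 TPM in NUL, 2991 ± 1398 TPM in LAC and 10992 ± 1370 TPM in ID6, and the log2 fold change of the sum in LAC against NUL was -1.68 ± 0.25 (limma adjusted p = 0.000336). Any reads that match both genes were divided between them by the authors' estimation program, and part of the share can rest on that division. The likeness of their transcripts was not measured.

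Neither sensor of plasma iron passed in any comparison in limma with all 19 mice. Tfr2, the hepatocyte receptor that reports iron-loaded transferrin to the BMP pathway (chr5:137569840-137587481), ranged from 167 to 215.5 TPM in NUL (median 199.8), from 162 to 192 TPM in LAC (median 183) and from 162 to 179 TPM in ID6 (median 172). The ranges overlapped between all stages. Its log2 fold changes were -0.12 ± 0.06 for LAC against NUL, -0.06 ± 0.06 for ID6 against LAC and -0.18 ± 0.06 for ID6 against NUL (limma adjusted p of 0.241, 0.539 and 0.0884), and the last passed with median-ratio scaling (-0.28, adjusted p = 0.0375). The values of Tfr2 among mice numbered 200 and above were -0.17, 0.02 and -0.15. Hfe, the hemochromatosis protein that works with both transferrin receptors (chr13:23702034-23710854), held between 30.8 and 41.6 TPM over all 19 mice, with log2 fold changes of 0.05 ± 0.07, 0.10 ± 0.08 and 0.15 ± 0.07 in the same order, and 0.17, 0.01 and 0.18 among mice numbered 200 and above.

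The BMP-SMAD pathway was read from its regulators and from its target genes. Of 14 tested genes that regulate hepcidin through BMPs, SMADs and iron sensing, 1 fell in LAC against NUL, with a median log2 fold change of -0.07, and 4 rose in ID6 against LAC, with a median of 0.21. The gene that fell was Bmp2, a ligand made by liver endothelium, at 4.15 TPM in NUL and 2.6 TPM in LAC, and its NUL and LAC values did not overlap (-0.52 ± 0.12, limma adjusted p = 0.00773). Bmp2 rose again to 4.72 TPM in ID6 (0.67 ± 0.12, adjusted p = 0.000491). Bmp6, the other ligand of this kind, had means of 1.52, 0.922 and 1.45 TPM. Its log2 fold change was -0.40 ± 0.13 in LAC (limma adjusted p = 0.0518) and 0.37 ± 0.13 in ID6 against LAC (adjusted p = 0.0462). The fall of Bmp6 in LAC passed with the number range as a covariate (-0.37, limma adjusted p = 0.00193). It did not pass among mice numbered 200 and above (-0.31, adjusted p = 0.0736). Hemojuvelin, the BMP co-receptor listed under its older symbol Hfe2, and Tmprss6, the protease that cleaves it, had log2 fold changes of -0.10 ± 0.11 and -0.01 ± 0.09 in LAC. Tmprss6 rose in ID6 against LAC (0.27 ± 0.09, adjusted p = 0.0435). The ID6 calls for Bmp6 and Tmprss6 were lost among mice numbered 200 and above (0.11 and 0.09, adjusted p of 0.448 and 0.419) and with the number range as a covariate (0.15 and 0.11, adjusted p of 0.261 and 0.217). Of the 4 genes that rose, 1 did so among mice numbered 200 and above.

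Of 6 genes that BMP-SMAD signaling is known to switch on, 5 fell in LAC against NUL and all 6 rose in ID6 against LAC. The median log2 fold change was -1.15 in LAC and 1.32 in ID6. None passed for ID6 against NUL in limma, where 0 of the 6 had an unadjusted p under 0.05. Atoh8, a transcription factor that responds to iron in the liver, ranged from 8.33 to 23.4 TPM in NUL, from 2.30 to 8.35 TPM in LAC and from 19.2 to 22.6 TPM in ID6. Its log2 fold change was -1.37 ± 0.21 in LAC (limma adjusted p = 0.000465) and 1.77 ± 0.22 in ID6 against LAC (adjusted p = 1.9e-05). Id1, an inhibitor of differentiation factors, fell from a mean of 16.2 to 6.85 TPM (-1.28 ± 0.33, adjusted p = 0.0199), and Smad7, a feedback inhibitor of the pathway, from 6.23 to 2.54 TPM (-1.02 ± 0.30, adjusted p = 0.0399). Id2 and Id3 were the others that fell. Smad6 had a log2 fold change of -0.42 ± 0.17 (adjusted p = 0.138). Among the mice numbered 200 and above 2 of the 6 fell in LAC, Atoh8 and Smad6, and 2 rose in ID6 against LAC, Atoh8 and Id2.

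**Figure D2:**
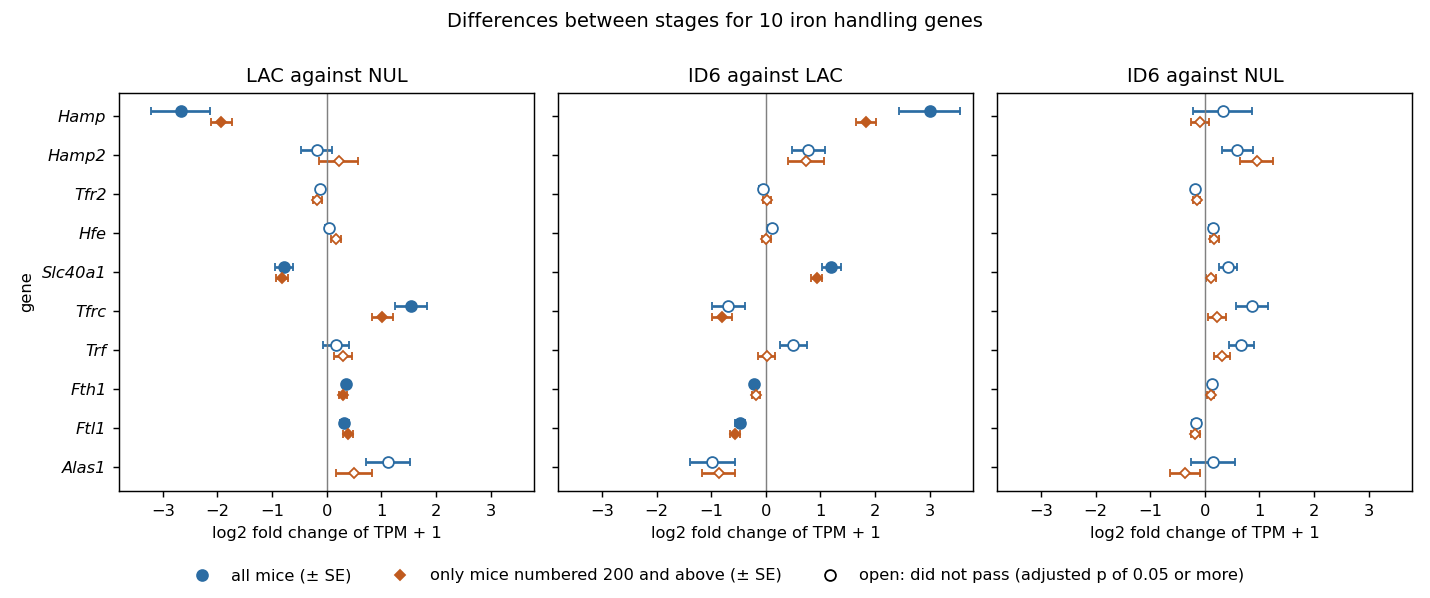
Log2 fold change of TPM + 1 with its SE (horizontal axes) for the 10 genes in 3 comparisons, from all 19 mice (circles) and from the 13 mice numbered 200 and above (diamonds); filled symbols passed at an adjusted p under 0.05. Hamp, Slc40a1 and Tfrc stand farthest from 0 among those that passed in lactation, and no symbol is filled for ID6 against NUL.

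Of the 11606 genes compared, those whose mean level reached 1 TPM, Atoh8 was the gene whose log2 level followed Hamp most closely over the 19 mice (Pearson r = 0.946, Spearman rho = 0.84). Smagp, Plac8, Supt4a and Ackr1 came next (r from 0.903 to 0.915). Fam126a, AC151971.2, Fmo5, Serpina1e and Nab2 ran most opposite to it (r from -0.916 to -0.9). The points share the 3 stages and the animal number ranges, so these values rank genes that differ between the same mice and carry no test. Once the mean of each stage and number range was taken out, the relation of Hamp to Id1 passed (Pearson r = 0.368, permutation p = 0.00514, adjusted over 7 relations 0.036, Spearman rho = 0.674, permutation p = 0.00404, adjusted 0.0283). This call was lost with median-ratio scaling (r = 0.376, permutation, adjusted p = 0.0598) and with only the stage means taken out (r = 0.463, permutation, adjusted p = 0.204). Leaving out the pair of mice with the most extreme values of the measure on the horizontal axis gave r = 0.396, and r was 0.693 in the 13 mice numbered 200 and above and 0.527 in the 6 others. The relations of Hamp to Smad7, Bmp6, Saa1, Tfr2 and Tfrc and of Tfrc to Slc40a1 had r between -0.323 and 0.347 and adjusted permutation p of 0.181 or more.

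**Figure D3:**
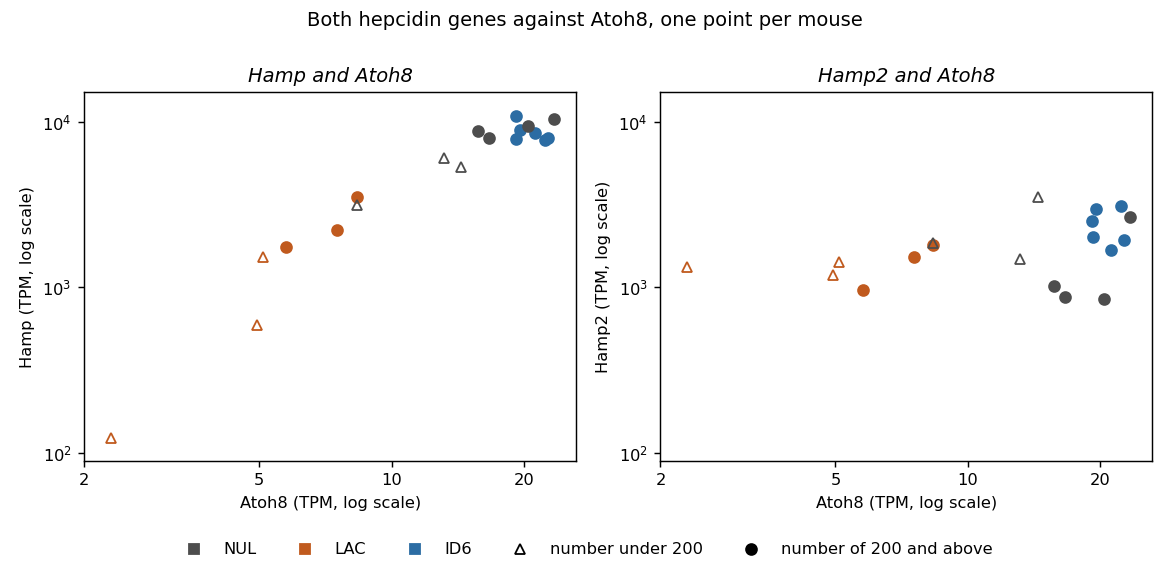
TPM of Hamp (left) and Hamp2 (right) against TPM of Atoh8 on log axes, 1 point per mouse, colored by stage, with triangles for animal numbers under 200. Hamp climbs from 123 TPM at the lowest Atoh8 level to 10404 TPM at the highest, while Hamp2 stays between 857 and 3508 TPM over the same span.

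The inflammatory arm was read in the same way. Of 6 genes of interleukin 6 and STAT3 signaling none passed in LAC against NUL in limma (1 at an unadjusted p under 0.05), and Jak1 and Jak2, kinases of that receptor, rose in ID6 against LAC. Both calls were lost among mice numbered 200 and above (0.20 and 0.16, limma adjusted p of 0.176 and 0.251) and with the number range as a covariate (adjusted p of 0.208 and 0.139). Stat3 did pass among mice numbered 200 and above. There it fell in LAC (-0.47, limma adjusted p = 0.0272) and rose in ID6 against LAC (0.38, adjusted p = 0.0302). With the covariate Stat3 passed in neither comparison (adjusted p of 0.632 and 0.47), while Il6ra rose in LAC (0.56, adjusted p = 0.0395). Of 12 acute phase genes, which hepatocytes induce in inflammation, 3 fell in LAC: the serum amyloid genes Saa1, Saa2 and Saa3. Among mice numbered 200 and above 4 fell, with Lcn2 besides (-2.12, limma adjusted p = 0.0387). Mean Saa1 was 122 TPM in NUL and 12.7 TPM in LAC (-2.40 ± 0.51, limma adjusted p = 0.0058). In ID6 against LAC 9 of the 12 rose and Crp fell (8 rose among mice numbered 200 and above, where Crp did not pass, adjusted p = 0.0689), and mean Saa3 was 91.3 TPM against 4.68 TPM (4.28 ± 0.47, adjusted p = 7.1e-06). In ID6 against NUL 2 of the 12 rose, Saa3 (2.42 ± 0.46, limma adjusted p = 0.0081) and Itih4 (0.52 ± 0.13, adjusted p = 0.0297). Saa1 and Saa2 did not pass there (adjusted p of 0.177 and 0.121). The call for Itih4 was lost among mice numbered 200 and above (0.31, adjusted p = 0.23).

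The iron exporter ferroportin, Slc40a1 (chr1:45908068-45926523), fell in lactation and rose after weaning. It ranged from 55.5 to 126 TPM in NUL (median 92.3), from 37.3 to 66.4 TPM in LAC (median 47.7) and from 101.5 to 126 TPM in ID6 (median 111). The highest LAC mouse was above the 2 lowest NUL mice, both with low animal numbers, and every ID6 mouse was above every LAC mouse. The log2 fold change was -0.78 ± 0.16 in LAC against NUL (limma adjusted p = 0.0053) and 1.20 ± 0.17 in ID6 against LAC (adjusted p = 6.8e-05). Among mice numbered 200 and above it was -0.82 ± 0.11 and 0.93 ± 0.10, and there LAC did not overlap with NUL or with ID6. For ID6 against NUL it was 0.42 ± 0.16 (adjusted p = 0.128), and 0.12 ± 0.09 among those mice.

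Liver macrophages, the Kupffer cells that recycle iron from red cells, express ferroportin, and their markers were counted in the same comparisons. Of 10 Kupffer cell and macrophage markers 8 fell in LAC against NUL and all 10 rose in ID6, against LAC and against NUL. Among mice numbered 200 and above the counts were 8 and 10, and 5 of the 10 rose in ID6 against NUL. Their summed level was 231 to 414 TPM in NUL, 149 to 293 TPM in LAC and 502 to 675 TPM in ID6, and none of the defining markers was at 0. Of 8 markers of sinusoidal endothelium, the source of BMP ligands, 3 fell in LAC and 5 rose in ID6 against LAC, as many as among mice numbered 200 and above, with sums of 168 to 217, 99.1 to 167 and 225 to 246 TPM. Of 8 hepatocyte markers, albumin rose in LAC (Alb, 0.86 ± 0.15, limma adjusted p = 0.00137) and 7 did not pass there. In whole tissue, fewer cells of a type and less RNA per cell cannot be told apart, and the part of these cells in the levels of Slc40a1 and the BMP genes was not tested.

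The receptor that takes up transferrin-bound iron, Tfrc (chr16:32608920-32632794), rose in lactation. It ranged from 2.76 to 16.9 TPM in NUL (median 9.85), from 19.6 to 34.2 TPM in LAC (median 24.6) and from 11.8 to 20.6 TPM in ID6 (median 14.8). Every LAC mouse was above every NUL mouse, and 1 ID6 mouse reached the lowest LAC mouse. Mean Tfrc was 2.75 times as high in LAC as in NUL, and the log2 fold change on mean log values was 1.55 ± 0.29 (limma adjusted p = 0.0023). Within NUL the 3 mice with low numbers held 2.76 to 5.68 TPM and the other 4 held 9.85 to 16.9 TPM, and among mice numbered 200 and above the log2 fold change was 1.02 ± 0.20 (adjusted p = 0.0079). For ID6 against LAC it was -0.69 ± 0.30 (adjusted p = 0.11), and this passed among mice numbered 200 and above (-0.79 ± 0.18, adjusted p = 0.0105), where the stages did not overlap. For ID6 against NUL it was 0.86 ± 0.29 (adjusted p = 0.0896), and 0.22 ± 0.17 among those mice.

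Tfrc was followed most closely over the 19 mice by Hs3st3b1, Acnat2, Acsl4, Acsl3 and Vat1 (Pearson r from 0.907 to 0.922) and ran most opposite to Gm20319, Cideb, Cox6b1, Psma4 and Cyp2b13 (r from -0.93 to -0.89). Both Acsl genes encode enzymes that activate long-chain fatty acids. Again the mice share stages and number ranges, and no test was made.

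Transferrin, Trf (chr9:103204001-103230444), the plasma carrier that delivers iron to that receptor, ranged from 9717 to 21908 TPM in NUL (median 15842), from 10757 to 24405 TPM in LAC (median 16513) and from 19279 to 30578 TPM in ID6 (median 23022). All 3 ranges overlapped, and within NUL and LAC the mice fell apart by animal number, with 9717 to 12972 TPM in the 6 low numbers and 15842 to 24405 TPM in the 7 high numbers. The log2 fold change was 0.17 ± 0.24 in LAC against NUL, 0.50 ± 0.25 in ID6 against LAC and 0.67 ± 0.24 in ID6 against NUL (limma adjusted p of 0.725, 0.152 and 0.0993). With the high numbers alone the values were 0.30 ± 0.17, 0.01 ± 0.16 and 0.31 ± 0.15. Trf shares 2108 exon bases with Gm20425 on the same strand, a gene listed at a mean of 6.38 TPM.

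The transcripts of both chains of ferritin, the protein that stores iron, rose in lactation, and protein was not measured. Fth1 (chr19:9980598-9985098) ranged from 1545 to 1772 TPM in NUL (median 1699.8), from 1996 to 2271 TPM in LAC (median 2092) and from 1723 to 1900 TPM in ID6 (median 1829.8), so that LAC overlapped with neither other stage. Its log2 fold change was 0.35 ± 0.05 in LAC against NUL (limma adjusted p = 0.000501) and -0.22 ± 0.06 in ID6 against LAC (adjusted p = 0.00857), and among mice numbered 200 and above 0.29 ± 0.07 (adjusted p = 0.0302) and -0.18 ± 0.07 (adjusted p = 0.0953). The ID6 against NUL value of Fth1 was 0.13 ± 0.05, and 0.11 ± 0.06 among those mice. These are small changes, with means of 1663 ± 86.0, 2114 ± 98.2 and 1816 ± 72.8 TPM (SD). Ftl1 (chr7:45457944-45459884) ranged from 5723 to 7391 TPM in NUL, from 7213 to 9781 TPM in LAC and from 5617 to 6395 TPM in ID6, with medians of 6808, 8439.7 and 6070.4 TPM. Every LAC mouse was above the NUL mean and above every ID6 mouse. Its log2 fold change was 0.32 ± 0.08 in LAC (adjusted p = 0.0207) and -0.47 ± 0.09 in ID6 against LAC (adjusted p = 0.000639), and among mice numbered 200 and above 0.39 ± 0.10 (adjusted p = 0.032) and -0.56 ± 0.09 (adjusted p = 0.00123). That of Ftl1 in ID6 against NUL was -0.15 ± 0.08, and -0.17 ± 0.08 among those mice. The call in LAC was lost without a filter on low values (adjusted p = 0.0771), in the fit of the NUL and LAC mice alone (adjusted p = 0.0683) and without LAC_200 (adjusted p = 0.0515). The ratio of light to heavy chain TPM was 4.05 ± 0.42 in NUL, 3.99 ± 0.58 in LAC and 3.32 ± 0.18 in ID6. Ftl1 shares 355 exon bases with Gm10252 on the opposite strand, a gene listed at a mean of 23.8 TPM.

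Counted by the ranges of TPM alone, Tfrc and Fth1 did not overlap between LAC and NUL, and 3.27% of all genes did not. Between ID6 and LAC, Hamp, Slc40a1, Fth1 and Ftl1 did not overlap, and 11.5% of all genes did not. Between ID6 and NUL all 10 overlapped, and 2.38% of all genes did not.

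Alas1, which sets the rate of heme synthesis in hepatocytes and is also induced by fasting (chr9:106233455-106248654), did not pass in any comparison with all 19 mice. It ranged from 89.9 to 718 TPM in NUL (median 352), from 354 to 997 TPM in LAC (median 765) and from 199 to 399.5 TPM in ID6 (median 373). The stages overlapped, and the 2 lowest mice were NUL mice with low numbers. The log2 fold change was 1.13 ± 0.40 in LAC (limma adjusted p = 0.0881) and -0.98 ± 0.42 in ID6 against LAC (adjusted p = 0.0993). In mice numbered 200 and above the values were 0.50 ± 0.33 (limma adjusted p = 0.429) and -0.87 ± 0.30 (limma adjusted p = 0.0746). The ID6 against NUL value of Alas1 was 0.15 ± 0.40 in all mice and -0.36 ± 0.28 in those numbered 200 and above. Each of the first 2 passed when 1 NUL mouse was left out, NUL_226 for the first (1.34, limma adjusted p = 0.04) and NUL_1 for the second (limma adjusted p = 0.049).

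**Figure D4:**
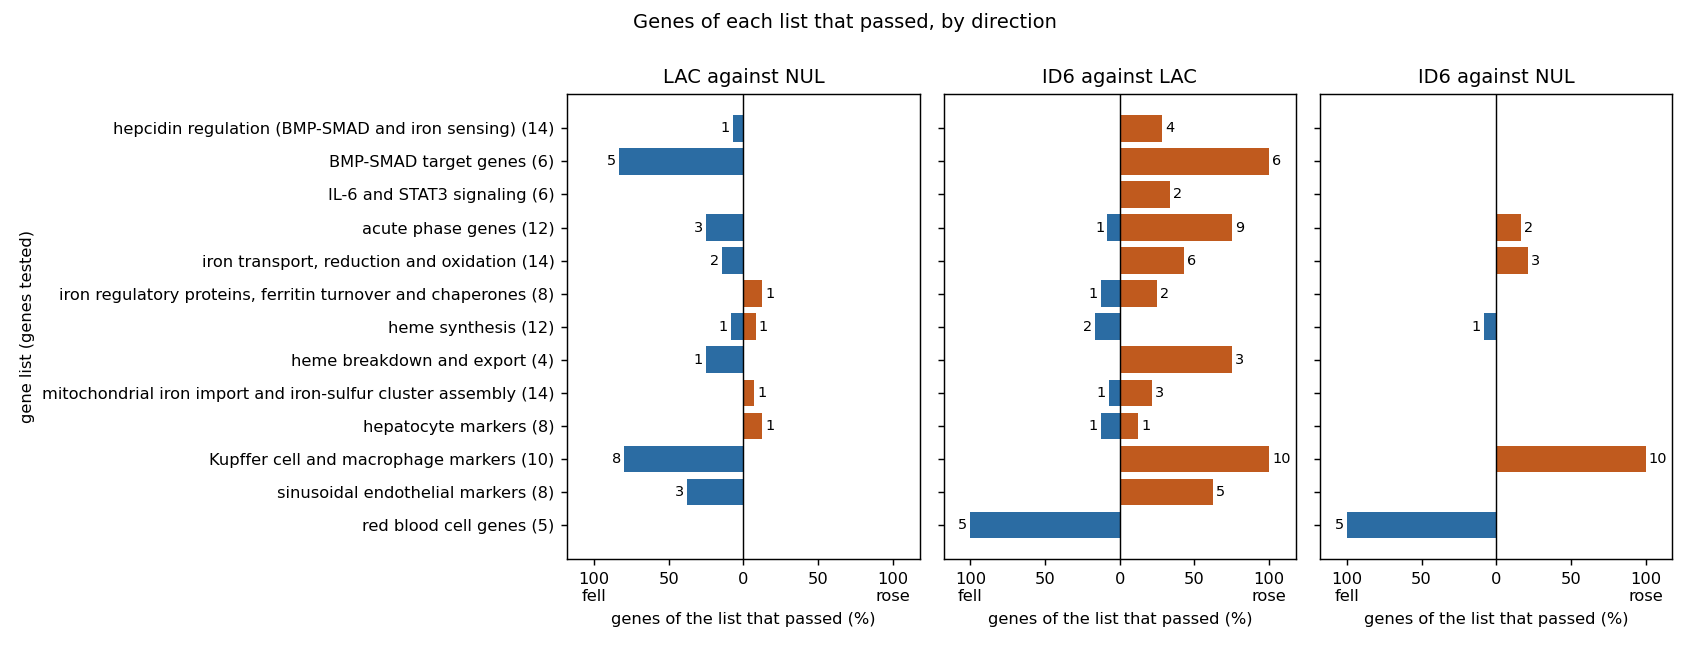
Percent of each gene list that passed (horizontal axes, higher to the right and lower to the left, with counts beside the bars) in 3 comparisons; the number tested is beside the name of the list. The BMP-SMAD target genes and the macrophage markers reach to the left in LAC and to the right in ID6 against LAC, and the red blood cell genes reach to the left in ID6.

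Around these genes, the other genes of iron and heme metabolism were counted by list. Over the 52 tested genes of those 5 lists, 3 rose and 4 fell in LAC against NUL (13.5%, against 9.21% of all genes), 14 rose and 4 fell in ID6 against LAC (34.6%, against 22.8%), and 3 rose and 1 fell in ID6 against NUL (7.69%, against 4.36%). Cd163, also a listed macrophage marker, and Alas2, also a listed red blood cell gene, are in these counts. In ID6, against LAC and against NUL, Cd163 rose and Alas2 fell. Their calls against NUL were lost among mice numbered 200 and above (limma adjusted p of 0.229 and 0.218). With the hepcidin regulators, BMP-SMAD targets, interleukin 6 and acute phase lists added, 16 of 90 passed in LAC against NUL (17.8%), 40 in ID6 against LAC (44.4%) and 6 in ID6 against NUL (6.67%). Of 14 genes of iron transport, reduction and oxidation, Steap4, a ferrireductase, and Slc39a8, an importer, fell in LAC, and 6 rose in ID6 against LAC. The call for Slc39a8 was lost among mice numbered 200 and above (-0.24, adjusted p = 0.0871), where 5 rose in ID6 against LAC. Among those was Hpx, hemopexin, which carries heme in plasma (from a mean of 2483 to 5634 TPM, 1.17 ± 0.20, limma adjusted p = 0.000315). Slc39a14, the importer of iron not bound to transferrin, and ceruloplasmin (Cp), the plasma ferroxidase, did not pass, with log2 fold changes of 0.14 and 0.18 in LAC. Slc11a2, which moves iron out of endosomes, rose in ID6 against LAC (0.45 ± 0.12, adjusted p = 0.0094) and had 0.06 ± 0.11 in LAC.

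Of 8 genes of iron regulatory proteins, ferritin turnover and iron chaperones, 1 rose in LAC. It was Aco1, iron regulatory protein 1, with a mean of 87.6 TPM in NUL, 106 TPM in LAC and 76.5 TPM in ID6 (0.28 ± 0.07, limma adjusted p = 0.0158, and -0.47 ± 0.07 in ID6 against LAC, adjusted p = 0.000151), and its LAC values overlapped with neither stage. Ireb2, iron regulatory protein 2, and Ncoa4, which carries ferritin to the lysosome, had log2 fold changes of 0.02 ± 0.13 and 0.01 ± 0.08 in LAC. Of 12 genes of heme synthesis Abcb10 rose and Uros fell in LAC, and among mice numbered 200 and above Uros alone passed (Abcb10 0.20, limma adjusted p = 0.307). Of 14 genes of mitochondrial iron import and iron-sulfur clusters the importer Slc25a37 rose in LAC (0.56 ± 0.14, adjusted p = 0.013) and fell in ID6 against LAC. Both calls were lost among mice numbered 200 and above (0.32 and -0.24, limma adjusted p of 0.271 and 0.315), and the fall also with the number range as a covariate (adjusted p = 0.0691). Of 4 genes of heme breakdown Blvra fell in LAC and 3 rose in ID6 against LAC, Hmox1, heme oxygenase 1, from 16.6 to 25.8 TPM (0.63 ± 0.17, adjusted p = 0.00999). The fall of Blvra was lost among mice numbered 200 and above (-0.21, limma adjusted p = 0.415).

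Red blood cell transcripts were lower in ID6. All 5 tested genes of that list, globins and Alas2, fell in ID6 against LAC and against NUL, and none of the 5 passed in LAC against NUL in limma, 0 of them at an unadjusted p under 0.05. Among mice numbered 200 and above all 5 fell in ID6 against LAC and 4 against NUL. The other 4 genes of the list were under the filter. The summed level of the list was 1144 to 2408 TPM in NUL, 1331 to 3337 TPM in LAC and 197 to 847 TPM in ID6, so ID6 did not overlap with either stage. The part of blood in the levels of the 10 genes was not tested.

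Differences between the ranges of animal number were tested for the set itself, and this test was added after the data were seen. Within NUL and LAC, 4 of the 10 genes were higher in mice numbered 200 and above: Hamp (1.59 ± 0.47, limma adjusted p = 0.0261), Slc40a1 (0.63 ± 0.09, adjusted p = 0.00023), Tfrc (0.89 ± 0.24, adjusted p = 0.0156) and Trf (0.90 ± 0.10, adjusted p = 5.2e-05). The same test passed for 25.6% of all genes. The lactation response itself was compared between the ranges for each gene. None of the 10 passed in limma, and 0.111% of all genes did. Tfrc had an unadjusted limma p of 0.0024, and the share of all genes with an unadjusted p under 0.05 was not computed. The Tfrc response was 2.29 in the low numbers and 1.02 in the high numbers, a difference of -1.28 ± 0.33 (adjusted p = 0.182). For Hamp the responses were -3.28 and -1.93, a difference of 1.35 ± 0.91 (adjusted p = 0.532). In this fit the responses of Hamp and Ftl1 in the high numbers did not pass (limma adjusted p of 0.0878 and 0.0656).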

How the data were processed

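Liver poly(A) RNA of 19 mice was sequenced in paired reads, and the authors estimated TPM per gene with RSEM 1.3.1 on GRCm38; the aligner is not given in the sources used here. The deposited TPM table keeps no counts, so read depth is unknown, the authors' count model could not be rerun, and the precision of a single value cannot be given. Stages and animal numbers were taken from the sample labels. log2(TPM + 1) of genes whose mean level reached 0.1 TPM was fitted with limma 3.58.1 (R 4.3.3, trend), 1 mean per stage, with p adjusted by Benjamini-Hochberg. Single genes were also tested by exact two-sided permutation of mean TPM (Python 3.11.15). The p-values set differences against the spread between mice, which limma moderates over all genes. The procedures were tested on simulated data. Alternatives were another pseudocount, no filter, median-ratio or quantile scaling, robust moderation, only the groups compared, a term for the range of animal number, the high-numbered mice alone, both hepcidin genes summed, and leaving out each mouse. The text names all 10 genes, fixed defining genes of each list, up to 6 passing genes per list by smallest p, and the 5 highest and 5 lowest correlations of Hamp and Tfrc. Stat3, Il6ra and Lcn2 are named for calls in alternative fits. The genes and lists were chosen with earlier results of these data known.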

Additional observations from a re-analysis of the deposited data

Results flagged for a closer look

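Of 30 groups looked at (10 genes in 3 stages), 1 held a value that stood apart by Dixon's test: Trf in mouse ID6_216, at 30578.43 TPM, where the next of the 6 ID6 mice had 23507 TPM. The gap was 0.626 of the range of the group, just past the critical value for 6 mice. Chance gives about 1 such value in 20 groups.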

How the results depend on the processing

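Over 3057 recomputed log2 fold changes of 101 results, 2757 kept their direction and their side of the threshold, 215 lost the call, 38 gained it and 47 changed sign. The calls for Hamp, Slc40a1, Tfrc and Fth1 in LAC against NUL and for Hamp, Slc40a1 and Ftl1 in ID6 against LAC held in all 30 alternatives each. Leaving out each mouse gave 4 to 6 genes of the set for LAC against NUL, 4 to 5 for ID6 against LAC and 0 to 2 for ID6 against NUL. Of all 16147 to 16256 genes tested in those fits, 1058 to 1578, 2841 to 3870 and 242 to 1480 passed, in the same order. For ID6 against LAC 7 genes passed in the fit of only those stages and 7 by exact permutation, unadjusted. For ID6 against NUL 1 passed with median-ratio scaling, where 393 of 16230 genes passed, and 7 by exact permutation, unadjusted. The cause of these differences was not tested.

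The relation of Hamp to Id1 had r = 0.376 (permutation, adjusted p = 0.0598) with median-ratio scaling. With only the stage means taken out, the r values of Hamp were 0.463 with Id1 (permutation, adjusted p = 0.204), 0.569 with Smad7, 0.533 with Bmp6, -0.361 with Tfr2 and 0.26 with Tfrc, and r of Tfrc with Slc40a1 was 0.767; the Smad7 and Slc40a1 relations passed there (permutation, adjusted p of 0.0321 and 0.019).

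The log2 fold changes that changed sign are given here, and none of them passed under that alternative. They reached 0.43 for Alas2 (-0.35 in all mice) and -0.36 for Hamp (0.32) and Alas1 (0.15), and the others were smaller. Among mice numbered 200 and above, LAC against NUL gave Hamp2 0.22, Tmprss6 0.051, Ireb2 -0.14, Slc39a14 -0.15 and Alas2 0.43, ID6 against LAC gave Tfr2 0.022, Ireb2 0.042, Ncoa4 -0.084 and Cp -0.0088, and ID6 against NUL gave Hamp -0.088 and Alas1 -0.36. With the range as a covariate, LAC against NUL gave Tmprss6 0.017 and Ireb2 -0.0061, ID6 against LAC gave Ncoa4 -0.073 and Cp -0.077, and ID6 against NUL gave Hamp -0.36 and Alas1 -0.079. Median-ratio scaling gave Tmprss6 0.031 in LAC against NUL, and Hfe -0.035 and Ncoa4 -0.097 in ID6 against LAC. Quantile scaling gave Ncoa4 -0.018 in ID6 against LAC and Ftl1 0.013 in ID6 against NUL. The log2 ratio of mean TPM of Alas1 in ID6 against NUL was -0.097. Leaving out each mouse, the ranges in LAC against NUL were -0.32 to 0.016 for Hamp2, -0.050 to 0.046 for Tmprss6, -0.068 to 0.11 for Ireb2, -0.018 to 0.11 for Slc11a2, -0.17 to 0.012 for Hmox1 and -0.038 to 0.064 for Ncoa4. In ID6 against LAC they were -0.0087 to 0.094 for Ncoa4 and -0.088 to 0.037 for Slc39a14, and in ID6 against NUL -0.14 to 0.36 for Alas1 and -0.094 to 0.029 for Bmp6.

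No paired analysis was possible because the animal numbers are not shared between stages. Depth limits cannot be given from TPM.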
